A study of Anser cygnoides with 12 samples.

Results

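The jejunum of control geese is described here from 4 libraries, 1 from each of 4 geese labelled Control (Con), out of 12 geese in the whole series. The geese belong to the group by this label, and no measured value decides which geese are in it. All geese were female Sichuan white geese, 250 days old at the start and fed for 12 weeks. The Con group received a basal diet of corn and soybean meal with 0% wheat germ. The LWG and HWG groups received diets with 21.8% and 43.6% wheat germ, and each has 4 geese in the series. The geese of a group were separate animals, with 1 library each. The spread between them therefore holds differences between animals, between the pieces cut and between libraries, which cannot be told apart. Where along the jejunum each piece was cut is not stated in the sources used here. The question addressed was what the unsupplemented goose jejunum expresses and how far 4 geese on the same diet differ from each other.

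The jejunum is the middle part of the small intestine and the main site where digested sugar, peptides and fat are taken up. Its villi are covered by enterocytes, whose brush border carries enzymes and transporters, together with goblet cells that secrete mucus and enteroendocrine cells that secrete hormones. New epithelium is made by dividing cells in the crypts, while plasma cells, macrophages and lymphocytes lie in the lamina propria beneath. A piece of whole wall also holds smooth muscle, connective tissue, vessels and nerves. In bulk RNA from such a piece, fewer cells of a type and less RNA per cell cannot be told apart.

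The deposited table holds 18007 genes, each with its count and its FPKM (fragments scaled to transcript length and library size) in every goose. Total counts were 40159187 to 44802940 in the Con libraries, within a range of 40159187 to 45686956 over all 12. Low counts were more frequent at multiples of 4 (in the Con libraries, 1095 values of 4 against 412 of 3 and 360 of 5) and were not read as 1 read pair each, so errors are given between geese and not from counting. Across all genes, which are not independent replicates, the Pearson correlation of log2 FPKM between Con geese was 0.967 to 0.982. Con 3 was the lowest goose by FPKM in 48.0% of the 8500 genes with a mean of at least 5 FPKM, and its median deviation from the mean of the 4 geese was -0.15 on the log2 scale. When counts were scaled between libraries by the TMM factors of edgeR instead, which gives TMM-scaled CPM (counts scaled to an adjusted library size), this median was 0.05, so the level of Con 3 is stated below on both scales where that matters. The 4 values given after a gene are those of Con 1, Con 2, Con 3 and Con 4 in this order.

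Of the 18007 genes, 11539 had a mean above 1 FPKM over the 4 Con geese, 591 had a mean above 100 FPKM and 27 a mean above 1000 FPKM. Another 1150 genes were listed at 0 in all 4. Of the 13 genes of the mitochondrial genome searched for by symbol, 0 were found. The ranks and shares given here are therefore those of the genes listed. Among these, expression was spread over many genes, since the 30 with the highest mean held 12.5% of the summed FPKM and the 500 highest 47.5%. The share of the 30 genes was 13.7%, 12.6%, 12.5% and 11.1% in the single geese (12.5% ± 1.06, SD, n = 4). The genes just inside and just outside the limit of 30 were RPL4 with a mean of 988 FPKM and ATP1B1 with 966 FPKM.

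Making protein was the most common role among the 30, with 10 genes for ribosomal proteins and 3 for elongation or initiation factors. FTH1, the heavy chain of the iron store ferritin, was the most abundant gene listed, with 3958, 3763, 5585 and 2492 FPKM (3949.6 ± 1269, SD, n = 4). EEF1A1, which brings aminoacyl-tRNA to the ribosome, had 3395, 4047, 3377 and 3226 FPKM and differed little between geese. The elongation factor EEF1B2 averaged 1032 ± 238 FPKM and the initiation factor EIF4A2 990.3 ± 94.6 FPKM, and TPT1, a protein whose own mRNA is under translational control, averaged 1093 ± 205 FPKM (SD, n = 4 each). Of the ribosomal proteins, RPS24 had 1729.8, 1642, 926 and 1324 FPKM and RPL4 1178, 1164, 685 and 923 FPKM. Others were RPS2, RPSA, RPS3A, RPL9, RPL26L1 and RPS7. Over all 62 genes with a ribosomal protein symbol and a mean of at least 5 FPKM, the median of the mean levels was 649 FPKM, and RPS27L was the lowest with 25.04 FPKM. They summed to 10.8%, 13.6%, 9.16% and 10.9% of all FPKM in the 4 geese. Of the 62 genes, 53 were highest in Con 2, and 43 were so on the TMM scale, while 41 were lowest in Con 3 by FPKM and 24 by TMM-scaled CPM. Of all 8500 genes, 29.4% were highest in Con 2 by FPKM and 18.3% by TMM-scaled CPM, and 48.0% and 27.3% were lowest in Con 3.

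**Figure D1:**
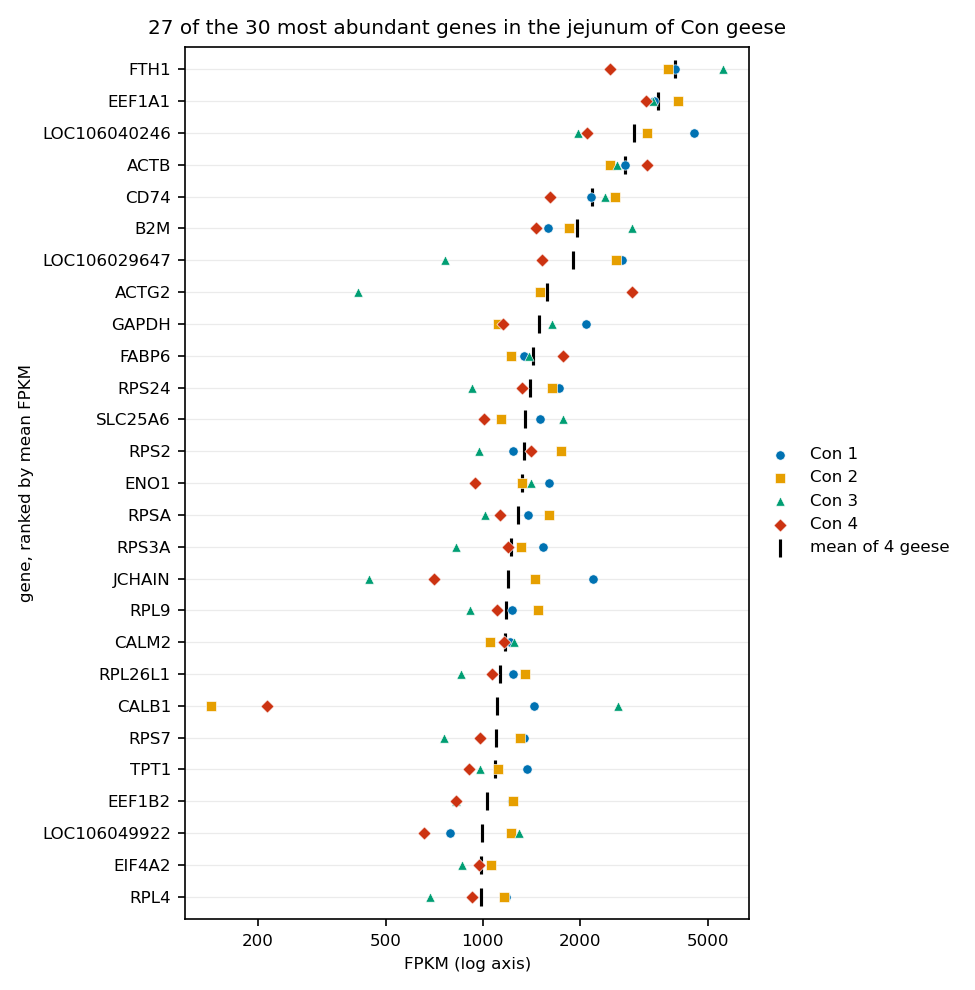
FPKM (log axis) of 27 of the 30 most abundant genes in each of the 4 Con geese (points, Con 1 to Con 4), with the mean over the geese as a black bar, ranked from FTH1 at the top to RPL4. Most genes have their 4 points close together, whereas CALB1 runs from 143 to 2625 FPKM and ACTG2 from 409 to 2913 FPKM.

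Immune genes formed another part of the 30. A phospholipase gene is given with them, and its role in immunity was not tested. LOC106040246, described in the file as group IIE secretory phospholipase A2-like, after an enzyme family that cleaves phospholipids, had 4522, 3231, 1983 and 2104 FPKM. It was the most abundant gene of Con 1. CD74, the invariant chain of MHC class II in antigen-presenting cells, had 2174, 2575, 2397 and 1615 FPKM, and B2M, the light chain of MHC class I, had 1593, 1855, 2916 and 1462 FPKM. LOC106049922, described as an MHC class II chain, averaged 994 ± 318 FPKM (SD, n = 4). LOC106029647, described as a lipopolysaccharide-binding protein, had 2716, 2598, 766 and 1525 FPKM and was lowest in Con 3. JCHAIN, which joins the units of secreted IgA and IgM in plasma cells, had 2203, 1454, 445 and 707 FPKM. It was highest in Con 1 and lowest in Con 3.

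Other genes of the 30 belong to the cytoskeleton, to energy metabolism and to absorption. ACTB, the actin of all cells, had 2771, 2485, 2605 and 3246 FPKM. ACTG2, the actin of visceral smooth muscle, had 1511, 1504, 409 and 2913 FPKM, highest in Con 4 and lowest in Con 3. Because actins are near-identical in sequence, reads may be split between their genes, and their levels are uncertain to that extent. Of the glycolytic genes, GAPDH averaged 1501 ± 461 and ENO1 1321 ± 277 FPKM, and SLC25A6, which exchanges ADP and ATP across the mitochondrial membrane, averaged 1357 ± 347 FPKM (SD, n = 4 each). The calcium sensor CALM2 was among the steadiest of the 30, with 1214, 1053, 1254 and 1161 FPKM. FABP6, which binds bile acids within enterocytes and is known from the ileum of mammals, had 1346, 1227, 1388 and 1781 FPKM. CALB1, the vitamin D-dependent calbindin that carries calcium through the avian enterocyte, had 1439, 143, 2625 and 214 FPKM. Con 2 and Con 4 lay far below Con 1 and Con 3.

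The cell type lists were read against their defining markers to check the label. Epithelial genes were abundant in all 4 geese, with 696, 532, 768 and 490.4 FPKM of the epithelial adhesion molecule EPCAM, 362, 239.9, 572 and 222 FPKM of the enterocyte keratin KRT20 and 416, 194, 460.5 and 281 FPKM of sucrase-isomaltase, SI. The intestinal transcription factor CDX1 had 38.2, 41.5, 47.7 and 41.3 FPKM. Defining markers of an intestinal epithelium were therefore present in every goose. The 12 genes of the enterocyte list found in the table (of 18 listed) summed to 4527, 1942, 7951 and 1996 FPKM. All 12 were highest in Con 3, on the TMM scale too, while 19.8% of the 8500 genes with a mean of at least 5 FPKM were highest in Con 3 by FPKM and 38.1% by TMM-scaled CPM.

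Genes of digestion and uptake were expressed at high levels, and 11 of 16 brush border enzymes, 15 of 18 transporters and 14 of 18 genes of fat absorption were found by symbol. The aminopeptidase ANPEP had 425, 297, 961 and 226 FPKM and the glutamyl aminopeptidase ENPEP 227, 206, 578 and 296 FPKM. All 10 brush border enzymes with a mean of at least 5 FPKM were highest in Con 3. Among transporters, the sodium pump subunit ATP1B1 had 1319.6, 610.0, 1328 and 608 FPKM. SLC6A19, which takes up neutral amino acids, had 283, 171, 1279.8 and 148 FPKM, and SLC15A1, the peptide transporter, had 185, 98.4, 641 and 74.2 FPKM. SLC2A5, the fructose transporter, averaged 74.6 ± 32.3 FPKM (SD, n = 4). In this family 11 of 14 genes were highest in Con 3 on both scales. Of all 8500 genes, 19.8% were highest in Con 3 by FPKM and 38.1% by TMM-scaled CPM. The fatty acid-binding proteins FABP1 and FABP2 had 332, 81.7, 755 and 109 FPKM and 235, 51.5, 328 and 40.02 FPKM, and APOB, the structural protein of lipoproteins, had 73.0, 15.9, 157 and 22.8 FPKM. Genes of fat absorption summed to 1523, 474, 2414 and 445 FPKM, and Con 2 and Con 4 were the lower geese for each of these 3 genes.

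Genes of secretory cells were mixed in how far they varied. The median SD of log2(FPKM + 0.1) between geese was 0.40 over 7 enteroendocrine genes and 0.55 over 4 goblet cell genes, against 0.95 over the 12 enterocyte genes and 0.29 over all 8500 genes. Of the enteroendocrine genes, CHGA, a granule protein, had 331, 389, 297 and 486 FPKM. The hormone genes GCG (glucagon and its relatives), NTS (neurotensin) and CCK (cholecystokinin) averaged 99.1 ± 32.7, 77.7 ± 15.1 and 31.9 ± 12.6 FPKM (SD, n = 4 each). AGR2, which folds mucins in goblet cells, had 683, 505, 269 and 557 FPKM and was lowest in Con 3. The other 3 goblet cell genes with a mean of at least 5 FPKM were lowest in Con 1, on the TMM scale too. Of all 8500 genes, 25.9% were lowest in Con 1 by FPKM and 25.8% by TMM-scaled CPM. Only 5 of 12 goblet cell genes were found by symbol, so this list is thin. Other hormone and secretory genes were among the 100 most variable. GIP, the gastric inhibitory polypeptide, had 36.8, 5.85, 10.5 and 3.63 FPKM and LOC106047032, described as glucagon-like, 75.3, 13.2, 39.2 and 7.46 FPKM. REG4, a secreted lectin, had 91.9, 296, 48.2 and 365 FPKM and ST6GALNAC1, which adds sialic acid to mucins, 39.3, 3.70, 30.9 and 1.68 FPKM. The levels of REG4 were highest in Con 2 and Con 4, and those of the other 3 genes in Con 1 and Con 3. Tuft cell genes were low, with 6.64, 5.97, 4.32 and 6.29 FPKM of the cation channel TRPM5.

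Genes of dividing cells were expressed in all 4 geese. CDK1, the kinase that starts mitosis, had 165, 186, 58.0 and 202 FPKM, and PCNA, the sliding clamp of DNA replication, had 90.3, 117, 45.6 and 127 FPKM. All 22 cell cycle genes with a mean of at least 5 FPKM were lowest in Con 3, and on the TMM scale too, against 48.0% of all 8500 genes by FPKM and 27.3% by TMM-scaled CPM. Their summed level was 828, 1105, 372 and 1196 FPKM. The crypt stem cell gene LGR5 averaged 6.90 ± 2.22 FPKM (SD, n = 4) and OLFM4, a crypt protein in mammals, had 329, 269, 78.6 and 19.7 FPKM, with Con 4 the lowest.

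Muscle and stroma ran the other way from the absorptive genes in Con 3. MYH11, the smooth muscle myosin heavy chain, had 323, 395, 203 and 774 FPKM, TPM2, a tropomyosin, had 467, 522, 229 and 692 FPKM and MYL9, a myosin light chain, had 376, 435, 219.8 and 631 FPKM. All 11 smooth muscle genes were highest in Con 4 and lowest in Con 3, on both scales, and they summed to 3582, 3578, 1471 and 6694 FPKM. The matrix proteins SPARC and COL3A1 had 240.1, 229, 92.8 and 275 FPKM and 124, 169, 89.2 and 189 FPKM. Of 15 fibroblast and matrix genes, 13 were lowest in Con 3 on both scales. Of all 8500 genes, 48.0% were lowest in Con 3 by FPKM and 27.3% by TMM-scaled CPM. The vessel genes LYVE1 and PECAM1 averaged 52.9 ± 12.7 and 20.7 ± 5.08 FPKM, and the neuronal genes STMN2 and VIP 28.1 ± 11.3 and 17.4 ± 6.15 FPKM (SD, n = 4 each). Heat shock proteins were highest in Con 4 for 12 of 13 genes and for 11 of 13 on the TMM scale, as in HSP90AA1 with 156, 189.8, 160.2 and 425 FPKM. Of all 8500 genes, 29.8% were highest in Con 4 by FPKM and 19.2% by TMM-scaled CPM. The part that the amount of muscle in a piece has in the level of any other list was not tested.

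Other leukocyte genes were expressed outside the 30 most abundant, where the ranking itself makes the mean level lower. CD3D and CD3E, subunits of the T cell receptor complex, had 32.2, 59.5, 58.7 and 35.8 FPKM and 36.9, 56.3, 51.0 and 38.6 FPKM. The macrophage receptor CSF1R had 21.3, 26.6, 15.2 and 21.4 FPKM. PIGR, which carries IgA across the epithelium, had 694, 581, 1006 and 416 FPKM, highest in Con 3, the goose with the lowest JCHAIN. Lists for tissues that a piece could carry over were read in the same way. Found by symbol were 10 of 12 hepatocyte genes, 6 of 10 stomach genes, 3 of 8 mesothelial genes and 5 of 19 pancreatic genes. For skeletal muscle this was 5 of 12 and for adipocytes 5 of 8. Most pancreatic and mesothelial markers, such as PRSS1, PNLIP and MSLN, could therefore not be read. Of the genes found, a mean under 1 FPKM held for 7 of 10 hepatocyte, 5 of 6 stomach and 3 of 3 mesothelial genes. It held for 4 of 5 pancreatic genes, but for 1 of 5 skeletal muscle genes and 0 of 5 adipocyte genes. The lists summed to 19.7 to 28.6 FPKM over the geese for hepatocytes, 2.84 to 11.6 FPKM for stomach, 0.501 to 1.39 FPKM for mesothelium, 9.996 to 42.3 FPKM for skeletal muscle and 87.5 to 388 FPKM for adipocytes. In Con 3, 351 FPKM of the adipocyte sum came from PCK1. The adipokine ADIPOQ had 46.4, 45.0, 22.2 and 70.2 FPKM, the stomach gene GKN2 6.21, 8.62, 2.66 and 10.6 FPKM and the antithrombin gene SERPINC1 8.08, 9.31, 8.44 and 8.51 FPKM. The part of such tissues in other results was not tested. Of the pancreatic list, CLPS (colipase) had 42.8, 15.8, 72.6 and 20.2 FPKM while PLA2G1B, CELA1, SYCN and CTRL stayed below 1 FPKM in every goose. The hepatocyte gene ALB had 0.949, 0.800, 0.246 and 0.2997 FPKM, the mesothelial gene WT1 0.206, 0.392, 0.223 and 0.0873 FPKM and the stomach gene PGC 0.312, 0.148, 0.0711 and 0.484 FPKM, and CLDN18 was listed at 0 in all 4. Erythroid TAL1 averaged 2.45 ± 1.22 FPKM (SD, n = 4), and the symbols of the globin genes searched for were not among those of the table.

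**Figure D2:**
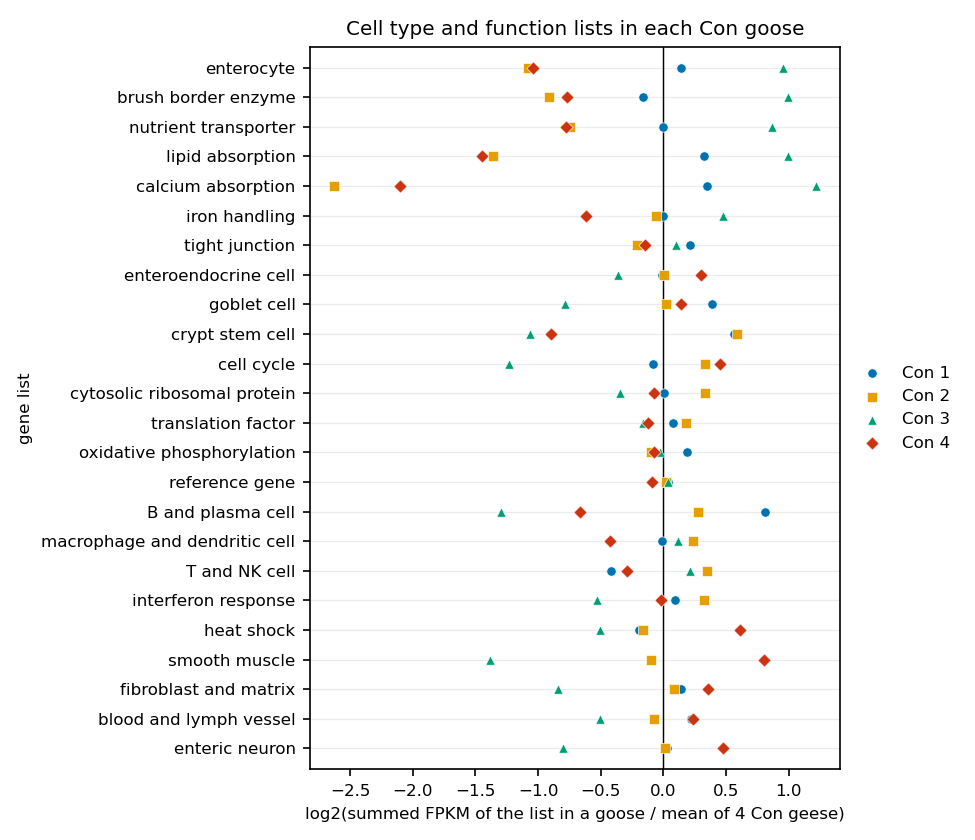
Summed FPKM of 24 gene lists in each Con goose, as log2 of the ratio to the mean of the 4 geese (x axis), 1 row per list and 1 point per goose. Con 3 lies highest in the 4 lists at the top, from enterocyte to lipid absorption, and lowest in smooth muscle, with 1471 FPKM, and in cell cycle, with 372 FPKM. The enterocyte list shares genes with the other lists at the top. A sum can rest mostly on 1 gene. CD74 held a mean of 2190 of the 2237 FPKM of macrophages and dendritic cells, and JCHAIN 1202 of the 1340 FPKM of B and plasma cells. For goblet cells, the sum was highest in Con 1 although 3 of 4 genes with a mean of at least 5 FPKM were lowest there.

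Genes known to mark position along the gut differed in direction between the 4 geese. GATA4, a transcription factor of the proximal small intestine in mammals, had 14.6, 0.491, 10.4 and 0.0152 FPKM. HOXA10, a Hox gene of the posterior gut, had 0, 3.996, 0.0251 and 4.21 FPKM, and HOXA9 had 3.65, 8.70, 1.95 and 10.2 FPKM. Con 1 and Con 3 were high in GATA4 and low in HOXA10, and Con 2 and Con 4 the reverse. In the LWG geese GATA4 had 0.0756, 0, 7.32 and 6.53 FPKM and HOXA10 2.22, 11.03, 0.0393 and 0 FPKM, and in the HWG geese GATA4 had 4.798, 6.76, 12.0 and 0.0111 FPKM and HOXA10 0.0245, 0.0656, 0 and 14.6 FPKM. In 12 of 12 geese, 1 of these genes was above 2 FPKM and the other below 0.5 FPKM, limits that were set with the values in view. SLC10A2, the bile acid transporter of the ileum in mammals, followed neither, with 0.893, 32.0, 70.3 and 46.9 FPKM in the Con geese. FABP6 followed neither too, with 1346, 1227, 1388 and 1781 FPKM. On the proximal intestine list, 4 genes averaged at least 5 FPKM. Of these, 2 were higher in Con 1 and Con 3 than in Con 2 and Con 4, against 13.9% of all 8500. Of 6 such distal genes (not HOXA10), 3 were highest in Con 4, 2 in Con 3, 1 in Con 1 and 0 in Con 2. Of all 8500, 29.8%, 19.8%, 21% and 29.4% were highest in these geese by FPKM. GATA6 had 24.4, 24.5, 26.6 and 18.7 FPKM, SLC6A4, the serotonin transporter, 3.29, 2.54, 4.23 and 4.85 FPKM and TMIGD1 70.4, 82.7, 195 and 114 FPKM. Whether the pieces were cut at different places was not tested.

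Variation between geese was measured as the SD of log2(FPKM + 0.1) over the 4 Con geese, for the 8500 genes with a mean of at least 5 FPKM. The median gene had an SD of 0.29 (quartiles 0.19 and 0.43). Of the 8500 genes, 192 (2.26%) had an SD above 1 and 445 (5.24%) an SD below 0.1. Among the lists with at least 8 such genes, the absorptive ones had the largest median SD, with 1.11 for brush border enzymes, 1.001 for fat absorption, 0.95 for enterocytes and 0.89 for transporters. The enterocyte list shares genes with the other absorptive lists, such as FABP1, FABP2, APOB, ANPEP and SLC15A1, so these lists are not independent of each other. Smooth muscle had 0.80 and cell cycle 0.76. The smallest were 0.18 for oxidative phosphorylation, 0.22 for iron handling, 0.22 for the list of translation factors and related proteins and 0.24 for tight junctions. All 12 enterocyte genes, but 3 of 12 oxidative phosphorylation genes, had an SD above the median of all 8500 genes. Of the 3 principal components that 4 geese allow, the first held 61.9% of the variance of these genes and set Con 3 on the other side from Con 2 and Con 4. Without Con 3, the median SD was 0.22.

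**Figure D3:**
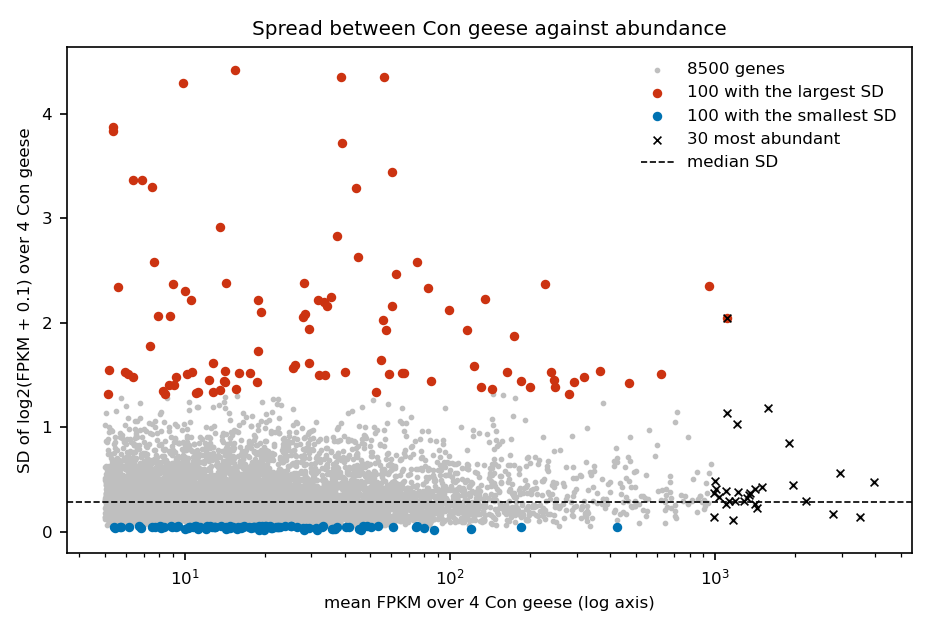
SD of log2(FPKM + 0.1) over the 4 Con geese (y axis) against mean FPKM (log axis) for 8500 genes (grey), with the 100 largest SDs in red, the 100 smallest in blue and the 30 most abundant genes as crosses. The dashed line is the median SD of 0.29, and CALB1 is the only cross among the red points.

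The 100 genes with the largest SD reached down to 1.32 (CBY1), and the next gene, LOC106045365, had 1.32. Their median level was 28.8 FPKM, and that of all 8500 genes, from which the filter had removed low genes, was 17.1 FPKM. Of the 100, 45 are named only by a LOC number, against 13.9% of the 8500 genes and 4 of the 100 genes with the smallest SD. The largest SD, 4.42, was that of LOC106029406, described as an E3 ubiquitin ligase of the TRIM39 type, with 0.0502, 0, 0.0730 and 61.5 FPKM. It was expressed in Con 4 and close to 0 in the other 3. The related LOC106029407 had 0, 0, 7.73 and 31.6 FPKM. LOC106029546, described as filamin-C-like and partial, was listed at 0 in 3 geese and had 21.3 FPKM in Con 4. For such LOC genes, reads of near-identical copies may be split or lost, so the differences are uncertain.

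Some of the largest SDs belonged to enzymes that act on lipids and peptides in the gut. ENPP7, the alkaline sphingomyelinase of the brush border, had 70.5, 1.17, 83.8 and 0.0917 FPKM (SD of log2 4.35). ASAH2, the neutral ceramidase that acts on its product, had 43.0, 1.10, 112 and 0.515 FPKM. Con 1 and Con 3 were high in both. The same geese were high in SCARB1, a lipoprotein receptor, with 94.8, 7.34, 142 and 5.03 FPKM, in TMPRSS15, the enteropeptidase that activates trypsinogen, with 10.2, 1.99, 43.8 and 1.02 FPKM, and in LCT, lactase, with 7.78, 1.57, 24.7 and 1.02 FPKM. LOC106034087, described as cytochrome P450 2H1-like, had 54.3, 0.535, 169.7 and 0.385 FPKM. CLDN2, a claudin that forms a cation pore, had 21.4, 1.99, 12.2 and 0.503 FPKM. Of the aquaporins, AQP8 had 87.1, 8.81, 145 and 0.698 FPKM and AQP10 24.3, 0.517, 2.79 and 0 FPKM, and Con 4 was the lowest in each.

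Another group of genes was low in Con 1 alone. SLC7A9, the light subunit of the cystine and basic amino acid transporter, had 0.516, 48.1, 50.3 and 78.3 FPKM, and CPO, carboxypeptidase O of the brush border, had 0, 3.66, 21.5 and 4.85 FPKM. SLC10A2, given above, followed the same course. LOC106049847, described as partial and like an MHC class I chain, had 1.48, 33.5, 83.2 and 61.6 FPKM. LOC106049850, described as like a butyrophilin, had 1.28, 25.6, 37.1 and 48.3 FPKM. LOC106049925, described as like CD69, an early activation antigen of lymphocytes, was high in Con 3, with 6.14, 46.2, 243 and 5.72 FPKM. LOC106029468, described as cytochrome P450 2G1-like and partial, was high in Con 1, with 26.2, 2.46, 0.243 and 1.77 FPKM. LOC106047645 was low in Con 4 alone, with 11.8, 18.2, 24.0 and 0.220 FPKM, while LOC106035940 had 5.03, 0, 16.5 and 0 FPKM and was listed at 0 in Con 2 and Con 4. The file describes neither of them.

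**Figure D4:**
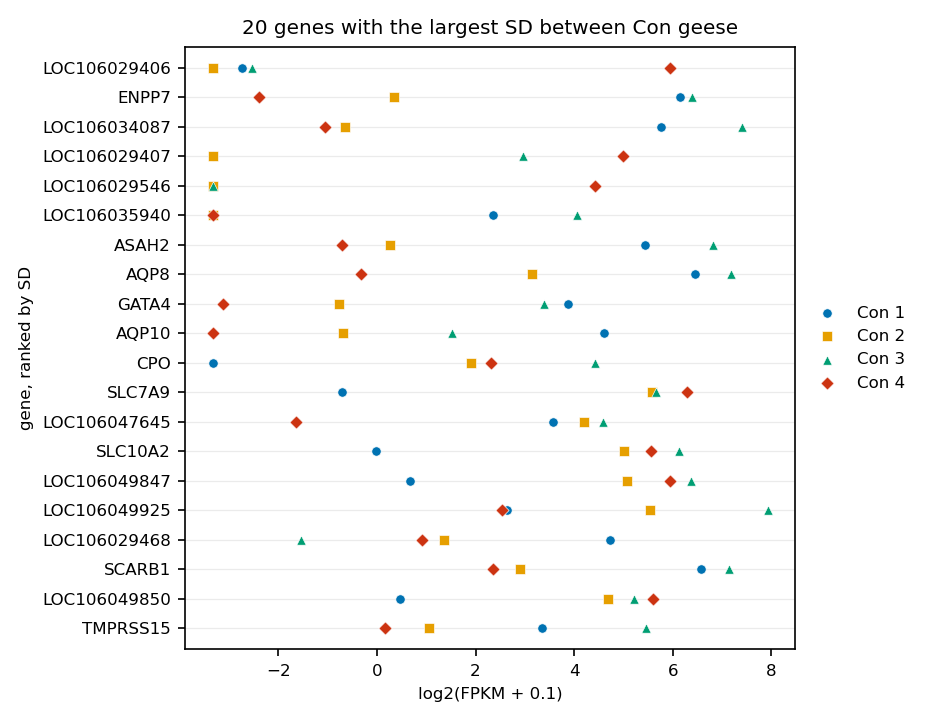
log2(FPKM + 0.1) (x axis) of the 20 genes with the largest SD between Con geese, 1 row per gene and 1 point per goose. ENPP7, ASAH2, GATA4 and SCARB1 have Con 1 and Con 3 on the right and Con 2 and Con 4 on the left, SLC7A9, CPO and SLC10A2 have Con 1 alone on the left, and LOC106029406 has Con 4 alone on the right.

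Each of the 100 genes was described by the geese above its widest gap on the log2 scale. Con 1 and Con 3 lay above it in 44 genes, against 5.66% of the 8500 genes by FPKM and 10.3% by TMM-scaled CPM. Con 3 alone lay above it in 16 genes, against 8.87% of the 8500 genes by FPKM and 19.1% by TMM-scaled CPM. All geese but Con 3 lay above it in 9 genes, fewer than the 27.2% and 12.9% of the 8500 genes. The 44 genes and the 16 genes kept their numbers on the TMM scale, and the 9 became 7. The 44 genes included ABCG8, the sterol exporter, with 121, 15.9, 100.2 and 5.31 FPKM, RBP2, which binds retinol, with 244, 10.2, 120.3 and 21.7 FPKM, and LEAP2, an antimicrobial peptide, with 118, 12.2, 91.8 and 8.78 FPKM. MEP1B, a meprin metalloprotease, and PCK1, which starts gluconeogenesis, were high in Con 3 alone, with 106, 56.7, 369 and 43.9 FPKM and 73.7, 32.1, 351 and 35.9 FPKM. ABCG5, the partner of ABCG8, had 143, 61.2, 285 and 31.7 FPKM.

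In the 9 genes with all geese but Con 3 above the gap, 4 are described as, or as like, interferon-induced proteins or antiviral enzymes. LOC106036023, described as interferon alpha-inducible protein 27-like, had 1500.2, 1928, 56.8 and 302 FPKM and ranked 32 by mean level. LOC106044214, described as like an interferon-induced protein with tetratricopeptide repeats, had 76.5, 86.4, 7.38 and 50.1 FPKM. LOC106036132, described as Mx, had 22.8, 41.2, 4.12 and 49.5 FPKM. LOC106042804, described as 2'-5'-oligoadenylate synthase-like, had 86.1, 161, 15.4 and 77.3 FPKM. These 4 genes were chosen with their values in view. Of the interferon list, 11 of 17 genes were found by symbol, and MX1, IFIT5, OASL and ISG12-2 were not. The list therefore does not cover the 4 genes above. None of its 11 genes, all with a mean of at least 5 FPKM, was among the 100. Of the 11, 8 were lowest in Con 3, 6 on the TMM scale. Of all 8500 genes, 48.0% were lowest in Con 3 by FPKM and 27.3% by TMM-scaled CPM. IRF1, a transcription factor of the interferon response, had 77.4, 79.5, 78.5 and 63.2 FPKM.

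At the other end, the 100 genes with the smallest SD had a median SD of 0.05. ATXN2, an RNA-binding protein, had 19.1, 19.2, 18.8 and 19.0 FPKM, UBE2A, a ubiquitin-conjugating enzyme, 87.8, 85.8, 87.5 and 86.4 FPKM and STT3B, a subunit of the oligosaccharyltransferase, 45.7, 46.02, 45.9 and 47.1 FPKM. CTNNA1, which links cadherins to actin, was the most abundant of the 20 steadiest, with 121, 119, 118 and 122 FPKM. The other genes of the 20 were GSTK1, GOLGA2, ADPRHL2, CLPX, PIK3C3, BTBD1, RAB21, PAM, ZCCHC2, SNX9, HS3ST1, ALG11, TRPC4AP, FBXO44, SLC38A9 and LOC106048284. Their ranking rests on the scaling. With TMM-scaled CPM, 0 of the 100 genes were among the 100 with the smallest SD and their median SD was 0.15, below the median of 0.27 over all 8500 genes. On that scale RMI1, VEZF1 and ING5 were the steadiest.

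Genes that are often used as references were not all steady. Of 27 such genes, 19 were found by symbol, and their median SD by FPKM was 0.25, against 0.29 over all genes. Of the 19, 9 were lowest in Con 3 by FPKM and 4 by TMM-scaled CPM. For all 8500 genes, these shares were 48.0% and 27.3%. The SDs of the single reference genes are given by FPKM only, and their order on the TMM scale is not reported here. The SD was 0.14 for EEF1A1, 0.14 for EIF4A2 and 0.17 for ACTB, but 0.43 for GAPDH and 0.44 for B2M. Other members, from the smallest SD to the largest, were GUSB (0.14), YWHAZ (0.18), SDHA (0.25), HSP90AB1 (0.25), PGK1 (0.25), UBB (0.26), TFCP2 (0.28), TBP (0.30), HPRT1 (0.30), RPL13 (0.37), RPL4 (0.37) and TFRC (0.59). GAPDH had 2095, 1117, 1636 and 1157 FPKM, with Con 1 and Con 3 above the other geese.

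The LWG and HWG geese took no part in choosing the most and least variable genes, so their spread shows whether these genes vary among other geese too. For the 100 most variable genes the median SD was 1.28 in the LWG geese and 1.60 in the HWG geese, while all 8500 genes had medians of 0.28 and 0.28. Of the 100 genes, 96 lay above the median of all genes in LWG and 99 in HWG. Ranked over the same 8500 genes, 51 of the 100 were also among the 100 most variable of the LWG geese and 61 among those of the HWG geese. Each such list holds 100 of the 8500 genes. Across the 8500 genes, the Spearman correlation of the SD in Con was 0.41 with that in LWG and 0.51 with that in HWG. The 100 least variable genes had median SDs of 0.18 in LWG and 0.17 in HWG, below all genes but well above the 0.05 that selected them in Con. By TMM-scaled CPM, the median SDs of these 100 genes were closer, with 0.15 in Con, 0.19 in LWG and 0.19 in HWG. By FPKM, 3 of them were among the 100 least variable in LWG, and 5 in HWG, where each list again holds 100 of the 8500 genes. LOC106048284, described as gastric intrinsic factor-like and partial, was near constant in Con by FPKM, with 31.2, 31.2, 32.1 and 31.3 FPKM. It had 22.8, 22.0, 19.7 and 28.6 FPKM in LWG and 41.2, 47.1, 7.79 and 58.9 FPKM in HWG. By TMM-scaled CPM its Con values were less even, with 54.6, 49.9, 63.5 and 49.6. OLFM4 had an SD of 1.87 in Con, 0.67 in LWG and 0.92 in HWG. MME, neprilysin, had an SD of 2.33 in Con, 0.38 in LWG and 2.34 in HWG, so its spread in Con was close to that in HWG. These differences in spread were not tested.

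**Figure D5:**
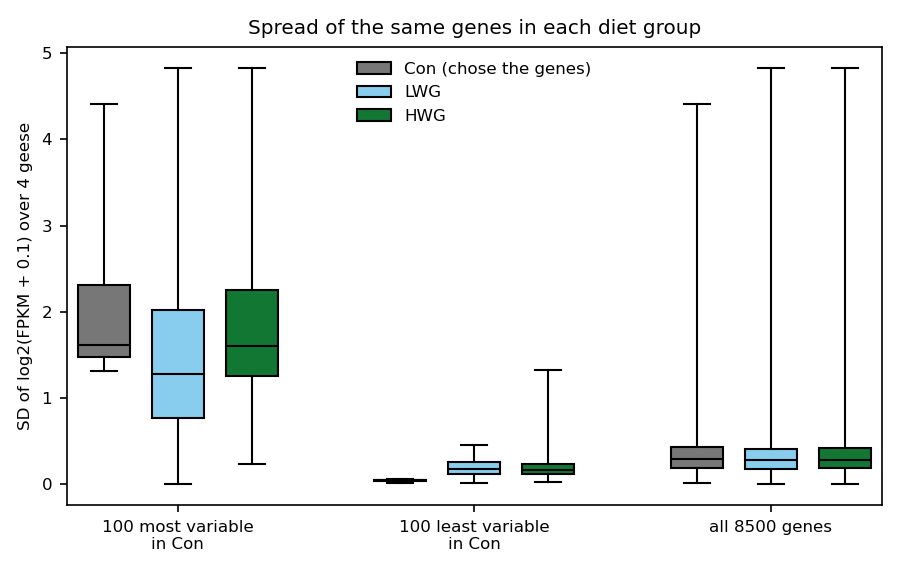
SD of log2(FPKM + 0.1) over the 4 geese of each group (y axis) for the 100 most variable and 100 least variable genes of the Con geese and for all 8500 genes. Boxes are quartiles with the median, whiskers run from lowest to highest, and the genes were chosen on the Con values, so only the LWG and HWG boxes are independent of the choice, with medians of 1.28 and 1.60 on the left and 0.18 and 0.17 in the middle.

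The levels of these genes were also compared with those of the geese fed wheat germ, by the quasi-likelihood test of edgeR on the counts of 14863 genes. In LWG against Con, and in HWG against Con, 0 genes (0% of those tested) had an adjusted p under 0.05. At an unadjusted p under 0.05 there were 985 genes in LWG and 619 in HWG, and at an adjusted p under 0.05 DESeq2 called 37 and 5 genes. Of the 30 most abundant genes, 25 were also among the 30 highest of LWG and 24 of HWG. Their median log2 fold change was 0.03 in LWG over Con and 0.17 in HWG over Con, with 0.01 and -0.01 over all genes tested. FABP6 had the smallest p of the 30 in LWG, with a log2 fold change of 1.67 ± 0.52 (SE) that did not pass in edgeR (adjusted p = 0.652). It had 2753, 2506, 4539 and 6721 FPKM in LWG geese and 1346, 1227, 1388 and 1781 FPKM in Con geese. Of the 100 most variable genes, 99 were tested, and 8 in LWG and 4 in HWG had an unadjusted p under 0.05. Of the 100 least variable genes, 2 in LWG and 0 in HWG did. Of all genes tested, 6.63% in LWG and 4.16% in HWG did. DESeq2 called 1 of the 100 most variable genes in LWG, LOC106047166, and 0 in HWG. It called 0 of the 30 most abundant and 0 of the 100 least variable genes in each comparison. LOC106047166 had 26.3, 2.45, 0.837 and 2.06 FPKM in Con geese and 0, 0, 0 and 0.490 FPKM in LWG geese. CALB1, the most variable of the 30, had 4.64, 5.62, 5536 and 14.6 FPKM in LWG geese and 1439, 143, 2625 and 214 FPKM in Con geese. Its log2 fold change of 0.43 ± 1.98 (SE) in LWG over Con did not pass (edgeR, adjusted p = 0.991) and became -7.05 without LWG replicate 3.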

How the data were processed

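Poly(A) RNA from the jejunum of 12 geese, 4 in each of the Con, LWG and HWG groups, was sequenced in paired ends from strand-marked libraries. The authors trimmed reads with fastp, aligned them with HISAT2 and assembled and quantified transcripts with StringTie, with versions not given in the sources used here. The authors deposited counts per gene, with nothing to show a normalization, and FPKM per gene, scaled by transcript length and library size. How the counts were made is not stated, and their sums exceed the read pairs that the sequencing yield in the paper implies. They were tested as deposited. For a given gene the ratio of count to FPKM was fixed up to 1 factor per library, so both columns hold the same measurement. The methods name another assembly than the scaffolds of the table, so no coordinates are given. Of 18007 gene numbers, 15158 were found in a RefSeq gene table, and 6374 genes have a LOC number as their only name. No sequence was printed, and a planned description of promoters and proteins was not run, since no sequence table or genome was used here.

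Levels were described as FPKM over the 4 Con geese (mean ± SD). Variation was the SD of log2(FPKM + 0.1) among genes with a mean of at least 5 FPKM. Differences from LWG and HWG were tested in edgeR 4.0.16 under R 4.3.3, with filterByExpr, TMM scaling and the quasi-likelihood F-test in 1 fit of all 12 libraries, with Benjamini-Hochberg adjusted p-values. A standard error was taken from the fold change and its F statistic. The genes named were the 30 with the highest mean FPKM, the 20 with the largest and the 20 with the smallest SD, up to 4 abundant members of each of 44 gene lists, list members among the 100 most variable genes, genes that mark position along the gut and common reference genes; from these, the text names those that show each group, and some genes are not reported here. The members and lists were chosen with earlier results of these data known. Alternatives were another pseudocount (0.01 or 1), other filters, TMM-scaled CPM with a prior count of 2, the coefficient of variation, DESeq2 1.42.0, limma 3.58.1 on log2(FPKM + 0.1), the replicate number as a block, and leaving out each goose. The scripts were tested on simulated data. Tables used Python 3.11.15, numpy 2.4.6, pandas 2.3.3 and matplotlib 3.10.9.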

Additional observations from a re-analysis of the deposited data

Results flagged for a closer look

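In 19 of 175 genes and list sums given in the report, 1 Con goose lay so far from the nearest other that the gap, as a share of the range of the 4, passed Dixon's 95% limit. Chance alone gives about 1 such case in 20, and 5.82% of the 8500 genes with a mean of at least 5 FPKM met it. Of the 19, 7 are among the 45 named genes that had been ranked as the most variable, where a goose that stands apart is part of the ranking. Con 1 lay far above the other geese in AQP10 (24.3 FPKM, the others 0 to 2.79), LOC106029468 (26.2 FPKM, the others 0.243 to 2.46) and PGK1 (281 FPKM, the others 191 to 205). Con 1 lay far below the other geese in BTBD1 (35.3 FPKM, the others 36.6 to 36.7). Con 2 lay far below the other geese in GSTK1 (27.6 FPKM, the others 28.2 to 28.3) and SLC38A9 (5.25 FPKM, the others 5.49 to 5.53). Con 3 lay far above the other geese in LOC106048284 (32.1 FPKM, the others 31.2 to 31.3), LOC106049925 (243 FPKM, the others 5.72 to 46.2), PCK1 (351 FPKM, the others 32.1 to 73.7) and SLC6A19 (1279.8 FPKM, the others 148 to 283). Con 3 lay far below the other geese in TBP (7.39 FPKM, the others 10.96 to 11.6). Con 4 lay far above the other geese in HSP90AA1 (425 FPKM, the others 156 to 189.8) and LOC106029406 (61.5 FPKM, the others 0 to 0.0730). Con 4 lay far below the other geese in IRF1 (63.2 FPKM, the others 77.4 to 79.5). CTRL had 0.0648 FPKM in Con 3, LOC106029546 had 21.3 FPKM in Con 4, SYCN had 0.271 FPKM in Con 4, each listed at 0 in the other 3 geese. The reference gene list summed to 12495 FPKM in Con 4 and to 13472 to 13612 FPKM in the others, and the adipocyte list summed to 388 FPKM in Con 3 and to 87.5 to 135 FPKM in the others. Among the steadiest genes, the distances are small in absolute terms and were flagged by FPKM only. By TMM-scaled CPM, BTBD1 had 83.1, 78.5, 97.5 and 78.3, so Con 1 was not the lowest goose. GSTK1 had 35.6, 31.8, 40.3 and 32.4, and SLC38A9 had 19.96, 17.5, 22.7 and 18.2. In both, Con 2 was lowest but close to Con 4, and Con 3 was highest. LOC106048284 kept Con 3 as the highest goose, with 63.5 against 49.6 to 54.6 in the others.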

How the results depend on the processing

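With 4 geese in a group, an SD is itself uncertain, and the ranking of genes by SD depends on which geese were drawn. The 30 most abundant genes held between 12.1% and 13.02% of the summed FPKM without 1 Con goose, and 27 to 28 of them stayed in the list, but 15 did when CPM, not divided by transcript length, was ranked. The median SD ran from 0.22 without Con replicate 3 to 0.30, and was 0.34 with no filter. Of the 100 most variable genes, 67 to 87 were shared without 1 Con goose, 65 with a mean of at least 1 FPKM and 46 with no filter. Of the 100 least variable genes, 17 to 47 were shared without 1 Con goose (17 without Con replicate 3), 0 with TMM-scaled CPM and 0 with no filter. With the genes chosen anew under each pseudocount and on the TMM scale, the most variable had median SDs of 1.16 to 1.29 in LWG and 1.43 to 1.69 in HWG, and the least variable 0.17 to 0.18 in LWG and 0.16 to 0.17 in HWG. The counts of list members highest or lowest in 1 goose on the TMM scale were chosen after seeing the data.

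Leaving out 1 goose gave 0 to 1 calls in LWG over Con, with 1 without Con replicate 3, and 0 to 2 in HWG over Con, with 2 without HWG replicate 3, and DESeq2 gave 37 and 5. The log2 fold change of CALB1 in LWG over Con turned to -3.92 in limma on log2(FPKM + 0.1), to -3.54 with the replicate block and to -7.05 without LWG replicate 3. The cause was not tested, and without 1 goose this value ran from -7.05 to 1.42. The labels give same-numbered geese nothing in common but the number, and not every correlation of their deviations was above 0.1, as they ran from -0.17 to 0.15 between LWG and Con and from 0.04 to 0.38 between HWG and Con. With the replicate block, 0 genes were called in each comparison and 1162 and 726 had an unadjusted p under 0.05.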
